A study of Mus musculus with 12 samples.

Results

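Genes that give spinal motor neurons their identity and their acetylcholine were followed in ribosome profiling of embryonic mouse brain and spinal cord. The genes were chosen by name, as 10 Ensembl identifiers, and not by a rule on their values. Earlier results of these data were known when they were chosen. Of these, 4 had a line in the table of 10481 genes and were followed in all 12 libraries: *Isl1* (ENSMUSG00000042258), *Foxp1* (ENSMUSG00000030067), *Slc18a3* (ENSMUSG00000100241) and *Chodl* (ENSMUSG00000022860). The other 6, *Isl2*, *Mnx1*, *Lhx3*, *Chat*, *Slc5a7* and *Ret*, were not analysed here.

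The embryos were of the Taiwanese mouse model of spinal muscular atrophy (SMA, strain 005058) at embryonic day 14.5. Controls were Smn+/-; SMN2tg/0 and SMA embryos were Smn-/-; SMN2tg/0, so both carried the human SMN2 transgene and the controls had 1 functional mouse *Smn* allele rather than a pair. Each of the 4 groups (control brain, SMA brain, control spinal cord and SMA spinal cord) had 3 libraries, labelled as biological triplicates. The libraries held 3683842 to 9117017 footprints in brain and 5162190 to 12793955 in spinal cord. Genotypes were taken from the labels, since *Smn1* was not analysed here.

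A ribosome footprint is a fragment of mRNA that a ribosome shields from RNase, so the count on a gene reflects both its mRNA level and the ribosomes on it. RNA-seq of the same tissue was not used here. The tissue was whole, so fewer motor neurons and fewer footprints per motor neuron cannot be told apart.

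Motor neurons arise in the ventral spinal cord and hindbrain and are the neurons that send axons out to muscle. *Isl1* encodes a LIM homeodomain factor that is needed for motor neurons to form, and it is also used by striatal, hypothalamic and sensory neurons. *Foxp1* encodes a forkhead factor that acts with Hox proteins to set the motor columns that innervate the limbs, and it is also found in cortex and striatum. *Slc18a3* encodes the vesicular acetylcholine transporter, which loads acetylcholine into synaptic vesicles, and *Chodl* encodes chondrolectin, a membrane protein enriched in motor neurons.

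On the mouse build GRCm38.p6, as annotated by RefSeq, *Isl1* lies at chr13:116298270-116309688, *Foxp1* at chr6:98925342-99522746, *Slc18a3* at chr14:32462437-32464850 and *Chodl* at chr16:78930841-78951736. *Slc18a3* lies wholly inside the annotated span of *Chat* (chr14:32408203-32465909), the gene of choline acetyltransferase. It starts 1059 bases from the upper end of *Chat*, an arrangement known as the cholinergic locus. How reads in such an overlap were assigned, and whether strand was used in counting, is not given in the sources used here. Reads from transcripts of *Chat* that overlap *Slc18a3* may not be told apart from its own.

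The promoters of *Slc18a3* and *Chodl*, which were high in spinal cord, are shown with that of *Isl1*, which was not, to set their sequences side by side. Each is written 5′ to 3′ on the strand of its gene, from the RefSeq promoter table on GRCm38.p6. The *Slc18a3* stretch is chr14:32464851-32465100 on the minus strand, the *Chodl* stretch is chr16:78930698-78930840 on the plus strand and the *Isl1* stretch is chr13:116309689-116309938 on the minus strand. The *Chodl* stretch stops at 143 bases, where the annotated gene begins, and the other stretches hold 250 bases. Capitals mark TAAT on either strand (TAAT or ATTA), the core that many homeodomain factors recognise.
Slc18a3: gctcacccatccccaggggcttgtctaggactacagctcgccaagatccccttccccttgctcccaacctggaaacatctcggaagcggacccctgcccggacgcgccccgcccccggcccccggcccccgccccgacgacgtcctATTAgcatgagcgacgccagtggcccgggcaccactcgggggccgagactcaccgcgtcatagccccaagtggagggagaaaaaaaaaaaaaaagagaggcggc
Chodl: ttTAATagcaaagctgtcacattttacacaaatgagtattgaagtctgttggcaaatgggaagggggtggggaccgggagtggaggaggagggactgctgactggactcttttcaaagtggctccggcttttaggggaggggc
Isl1: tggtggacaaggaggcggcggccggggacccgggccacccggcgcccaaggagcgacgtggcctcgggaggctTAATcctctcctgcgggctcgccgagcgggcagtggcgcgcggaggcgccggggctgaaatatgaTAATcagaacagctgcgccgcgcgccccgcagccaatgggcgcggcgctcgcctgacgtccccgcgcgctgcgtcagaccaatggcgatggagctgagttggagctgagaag
In the 250 bases before the start site used by the table, *Slc18a3* held 1 such core, *Chodl* 2 and *Isl1* 2. Of 32851 RefSeq promoters of the same length, 54.9% held at least 1 and 30.8% at least 2, so neither count sets these genes apart. *Foxp1* has 3 annotated starts, which held between 0 and 4 cores, and none is shown.

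*Slc18a3* was close to absent from brain and well measured in spinal cord. Its counts were 16, 3 and 1 in control brain and 0, 4 and 3 in SMA brain, against 298, 231 and 321 in control spinal cord and 242, 112 and 156 in SMA spinal cord (libraries 1, 2 and 3 in each group). As CPM, the counts scaled to a common library size after TMM normalization over all 12 libraries, these were 1.75, 0.630 and 0.244 in control brain and 0, 0.742 and 0.837 in SMA brain. In spinal cord they were 22.6, 21.7 and 30.4 in controls and 29.9, 21.8 and 25.5 in SMA. Every spinal cord library lay far above every brain library, and the genotypes overlapped in both tissues.

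*Chodl* had the same shape at a higher count. Its normalized CPM was 11.4, 3.99 and 2.93 in control brain and 3.83, 7.24 and 3.9 in SMA brain. In spinal cord it was 60.0, 62.7 and 74.3 in controls and 70.1, 44.3 and 55.8 in SMA. The tissues did not overlap and the genotypes did, and control brain library 1 was the highest of the 6 brain libraries for both *Chodl* and *Slc18a3*.

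*Isl1* ran the other way, with higher values in brain. Its normalized CPM was 49.0, 52.7 and 62.7 in control brain and 55.0, 48.1 and 48.2 in SMA brain. In spinal cord it was 34.5, 31.8 and 41.3 in controls and 35.9, 29.5 and 26.2 in SMA. All 6 brain libraries lay above all 6 spinal cord libraries.

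*Foxp1* was the most abundant of the genes followed. Its normalized CPM was 307, 231 and 200 in control brain and 203, 248 and 319 in SMA brain. In spinal cord it was 383, 330 and 398 in controls and 388, 316 and 303 in SMA. Control spinal cord lay above control brain, but 2 of the SMA spinal cord libraries, at 316 and 303, fell below the highest SMA brain library.

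**Figure D1:**
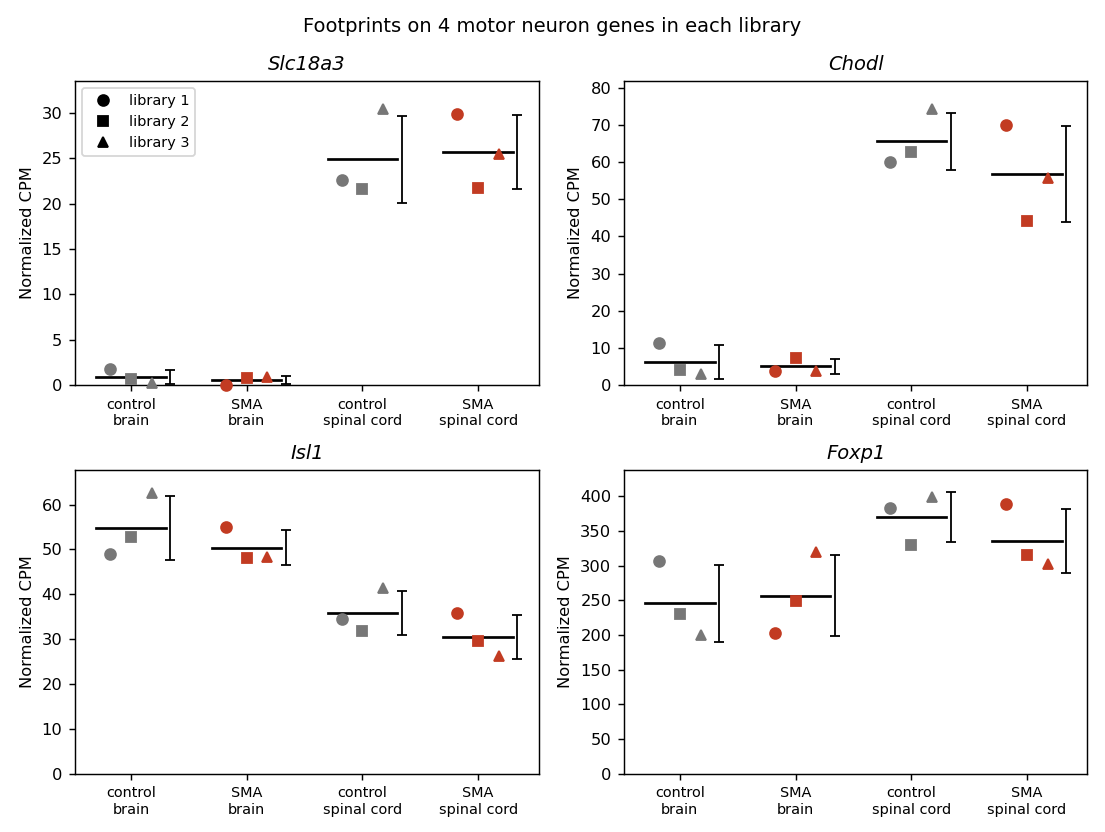
Normalized CPM (y axis, from 0) of each gene in each of the 12 libraries, grouped by genotype and tissue on the x axis, with the symbol giving the library number, a line at the group mean and a bar of 1 SD over 3 libraries. Slc18a3 and Chodl stand high in spinal cord and near the axis in brain, Isl1 is higher in brain, and control and SMA points are intermingled within each tissue.

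Levels of different genes were compared as RPKM, which divides by the deposited gene length. That length was 13316 bases for *Foxp1*, 5491 for *Chodl*, 3959 for *Isl1* and 2413 for *Slc18a3*. The paper takes gene length as the union of exons over isoforms, which includes untranslated parts. Footprints fall mainly on coding sequence. The orders, overlaps and percentiles below may therefore depend on the length of untranslated parts, which was not tested. In spinal cord *Foxp1* was highest, at a mean of 27.8 ± 2.72 (SD, n = 3) in controls and 25.2 ± 3.47 in SMA. In control spinal cord, *Chodl* (12 ± 1.39), *Slc18a3* (10.3 ± 1.99) and *Isl1* (9.06 ± 1.24) followed in that order, and the library ranges of neighbours overlapped. In SMA spinal cord the order was *Slc18a3* (10.7 ± 1.68), *Chodl* (10.3 ± 2.35) and *Isl1* (7.71 ± 1.25), again with overlap between neighbours.

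In brain the order was *Foxp1*, *Isl1*, *Chodl* and *Slc18a3* in both genotypes. *Foxp1* had a mean RPKM of 18.5 ± 4.17 in controls and 19.3 ± 4.41 in SMA, and *Isl1* 13.8 ± 1.79 and 12.7 ± 0.992. Their library ranges overlapped in controls (15.0 to 23.1 against 12.4 to 15.8) and not in SMA (15.2 to 24.0 against 12.1 to 13.9). *Chodl* had a mean RPKM of 1.11 ± 0.838 in control and 0.909 ± 0.354 in SMA brain, and *Slc18a3* of 0.363 ± 0.324 and 0.218 ± 0.190, so the motor neuron markers overlapped each other in control brain and not in SMA brain.

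These brain levels were near the bottom of the table. *Slc18a3* stood at percentile 3.67 of the 10481 genes by RPKM in control brain and *Chodl* at 5.41, against 31.8 and 38.2 in control spinal cord. The authors left out genes that were under an FPKM threshold in every replicate of a condition (control or SMA), and how the tissues entered that step is not given in the sources used here. *Slc18a3* and *Chodl* may therefore be in the table through their spinal cord values, in which case a tissue difference was built into the choice of genes. For *Slc18a3* the 3 control brain libraries held 20 footprints in all, which is 1.11 CPM of the summed counts with an exact Poisson 95% interval of 0.679 to 1.72. The 3 SMA brain libraries held 7, which is 0.554 CPM with an interval of 0.223 to 1.14. These intervals cover counting error only.

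The first comparison was of spinal cord with brain within each genotype. *Slc18a3* and *Chodl* were among the genes with the largest rise, *Foxp1* was moderately higher in controls, and *Isl1* was lower in spinal cord. In controls edgeR called 4309 of the 10481 genes (41.1%) at a Benjamini-Hochberg adjusted p below 0.05, 20.1% higher and 21.1% lower in spinal cord, and in SMA 40.4% (21.0% higher and 19.3% lower). Over all genes 54.0% did not overlap between tissues in controls and 51.8% in SMA. With a background of that size a call alone says little, and the sizes are given with their standard errors.

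In controls *Slc18a3* was 23.5-fold higher in spinal cord than in brain (log2 fold change 4.55 ± 0.44 SE, 95% interval 12.2- to 46.5-fold, edgeR adjusted p = 1.63e-05). In SMA it was 45.4-fold higher (5.50 ± 0.52, 21.3- to 103-fold, edgeR adjusted p = 1.19e-05). It ranked 119 of 10481 in controls and 91 in SMA when all genes were ordered by log2 fold change from the highest. Both folds rest on the few brain footprints given above, and the control value was 5.73 on the log2 scale without control brain library 1. As *Slc18a3* may be in the table through its spinal cord values, its folds, p-values and ranks only describe the tissue difference.

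*Chodl* was 9.68-fold higher in control spinal cord than in control brain (log2 fold change 3.27 ± 0.37 SE, 95% interval 5.58- to 16.8-fold, edgeR adjusted p = 4.72e-05). In SMA it was 10.9-fold higher (3.45 ± 0.40, 6.02- to 20.0-fold, edgeR adjusted p = 4.80e-05), and the ranks were 193 and 238. Leaving out control brain library 1 raised the control value to 4.23 on the log2 scale. The same limit holds for *Chodl*, which may also be in the table through its spinal cord values.

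*Isl1* was lower in spinal cord in both genotypes. The log2 fold change was -0.61 ± 0.14 (SE, edgeR adjusted p = 0.00505) in controls and -0.72 ± 0.15 (edgeR adjusted p = 0.00236) in SMA. *Isl1* therefore did not share the direction of the motor neuron markers, and its footprints in brain were on average 54.8 ± 7.08 CPM (SD, n = 3) in controls against 35.9 ± 4.90 in spinal cord.

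*Foxp1* was 1.5-fold higher in control spinal cord (log2 fold change 0.59 ± 0.18 SE, edgeR adjusted p = 0.0209). In SMA its log2 fold change was 0.39 ± 0.18 (95% interval -0.01 to 0.78, edgeR adjusted p = 0.105), which did not pass. The control call was lost without control brain library 2 (0.54, edgeR adjusted p = 0.0740), control brain library 3 (0.46, adjusted p = 0.0874) or control spinal cord library 3 (0.53, adjusted p = 0.0614), and the SMA value passed without SMA brain library 3 (0.57, adjusted p = 0.0321).

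**Figure D2:**
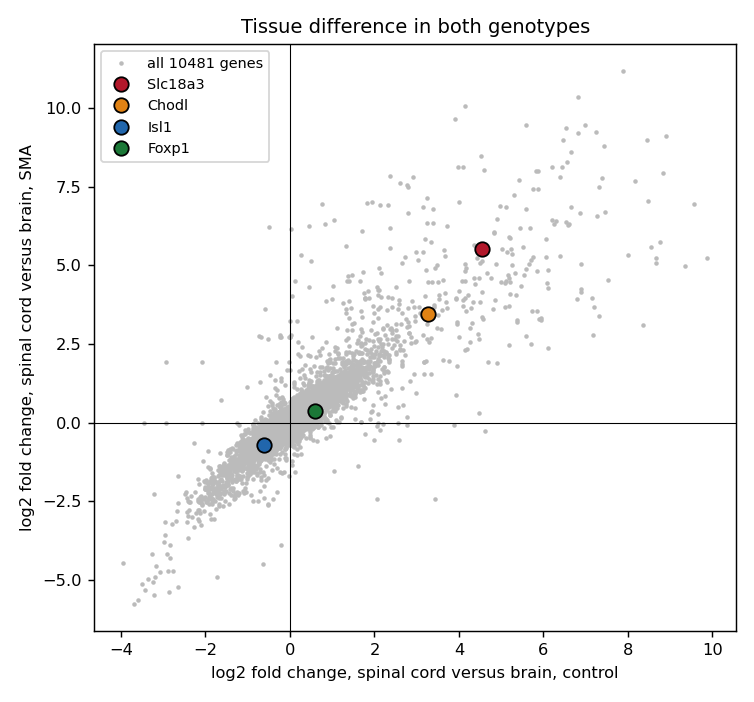
Log2 fold change of spinal cord versus brain in SMA (y axis) against the same in controls (x axis) for all 10481 genes (grey points), with the 4 genes followed as coloured circles. Slc18a3 (4.55 and 5.50) and Chodl (3.27 and 3.45) lie far out at the upper right. Foxp1 (0.59 and 0.39) and Isl1 (-0.61 and -0.72) both lie close to the centre, Foxp1 to its upper right and Isl1 to its lower left.

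The second comparison was of SMA with control within each tissue. It asks whether ribosome occupancy on these genes differed at embryonic day 14.5 with the lower SMN of SMA embryos. None of the 4 genes passed the thresholds of the study (an unadjusted p below 0.05, a log2 fold change of 0.5 or more in size and a mean of 0.05 CPM or more) in either tissue. Over all genes 1.53% (160) passed in brain and 0.983% (103) in spinal cord. These are counts of the re-analysis, and the paper reports a larger number for spinal cord at these thresholds. The reason for that difference was not tested. At an adjusted p below 0.05 edgeR called 0 genes in both tissues, while 529 in brain (5.05%) and 733 in spinal cord (6.99%) had an unadjusted p below 0.05. DESeq2 called 0 genes in brain and 57 in spinal cord at that adjusted p, with 320 and 736 at the unadjusted p, and gave no adjusted p to 8133 genes in spinal cord.

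In spinal cord *Slc18a3* differed between genotypes by 0.04 ± 0.18 (SE) on the log2 scale (95% interval -0.39 to 0.47, edgeR adjusted p = 0.960). The mean was 25.7 ± 4.06 CPM (SD, n = 3) in SMA and 24.9 ± 4.80 in controls. The interval leaves room for a fall to 0.763-fold or a rise to 1.38-fold.

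*Chodl* differed in spinal cord by -0.22 ± 0.17 (SE, 95% interval -0.63 to 0.19, edgeR adjusted p = 0.734), *Isl1* by -0.24 ± 0.16 (interval -0.62 to 0.13, adjusted p = 0.700) and *Foxp1* by -0.15 ± 0.12 (interval -0.44 to 0.13, adjusted p = 0.733). SMA spinal cord library 1 lay highest of its group for each of the 4 genes, and without it *Chodl* was at -0.40 (edgeR unadjusted p = 0.0338, adjusted p = 0.424), *Isl1* at -0.38 (unadjusted p = 0.0415, adjusted p = 0.428) and *Foxp1* at -0.28 (unadjusted p = 0.0324, adjusted p = 0.424). None passed, and with each library left out in turn the values ran from -0.40 to -0.071 for *Chodl* (the last without SMA library 2), -0.38 to -0.13 for *Isl1* (the last without control library 3) and -0.28 to -0.079 for *Foxp1* (the last without SMA library 3). The groups overlapped for each of the 4 genes in each tissue. Over all genes 14.7% did not overlap between genotypes in spinal cord and 11.0% in brain.

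In brain *Isl1* differed by -0.10 ± 0.13 (SE, 95% interval -0.39 to 0.19, edgeR adjusted p = 0.944) and *Foxp1* by 0.07 ± 0.16 (interval -0.28 to 0.43, adjusted p = 0.963). *Chodl* differed by -0.35 ± 0.44 (interval -1.31 to 0.60, adjusted p = 0.940) and *Slc18a3* by -0.88 ± 0.89 (interval -2.84 to 1.02, adjusted p = 0.918). The last interval runs from 0.140-fold to 2.03-fold, so at this depth a severalfold fall of *Slc18a3* in brain was not detectable. For the sparse genes the sign also turned without control brain library 1, to 0.57 for *Chodl* and 0.28 for *Slc18a3*. That library had the lowest summed level of 8 named Hox genes (2.19 CPM, against 3.83 to 5.58 in the other brain libraries and 389 to 688 in spinal cord), and its part in the brain result was not tested beyond leaving it out.

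The interaction, which tests whether the genotype difference differed between tissues, was 0.95 ± 0.80 (SE) on the log2 scale for *Slc18a3*, 0.18 ± 0.55 for *Chodl*, -0.11 ± 0.20 for *Isl1* and -0.20 ± 0.25 for *Foxp1*. Each had an edgeR adjusted p of 1. By edgeR 0 of the 10481 genes passed at an adjusted p below 0.05 and 249 (2.38%) at an unadjusted p below 0.05, and DESeq2 gave 0 and 198. Without control brain library 1 the values for *Slc18a3* and *Chodl* were -0.23 and -0.77.

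**Figure D3:**
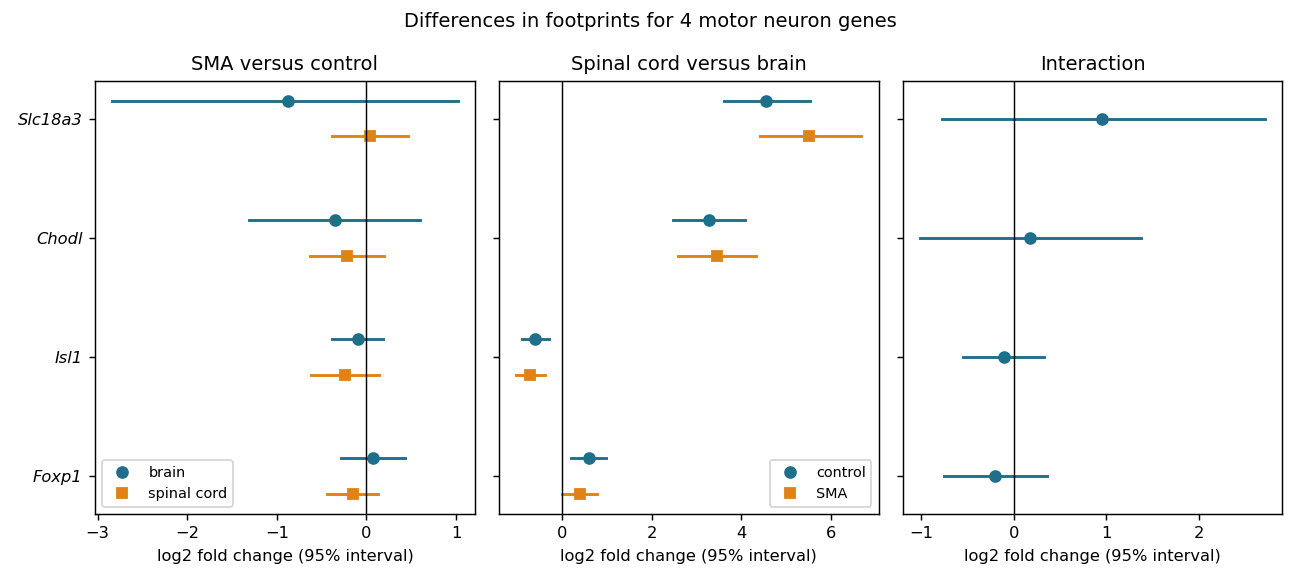
Log2 fold changes (points) with 95% intervals (lines) of the 4 genes for SMA versus control in each tissue, for spinal cord versus brain in each genotype and for the interaction, each panel on its own x axis with a line at 0. The genotype and interaction intervals all include 0, while the tissue intervals of Slc18a3, Chodl and Isl1 do not. The tissue interval of Foxp1 excludes 0 in controls (0.20 to 0.98) and includes it in SMA.

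Control spinal cord library 1 stood apart by its forebrain genes. *Otx2*, a factor of the forebrain and midbrain, had 41.1 CPM there, against 0.948 to 8.39 CPM in the other spinal cord libraries and 87.4 to 134 CPM in brain. *Fezf2*, a factor of cortical projection neurons, had 12.2 CPM there, against 0.569 to 4.07 CPM in the other spinal cord libraries. SMA spinal cord library 1 held the highest value of its group for both genes, at 8.39 and 4.07 CPM, though for *Otx2* SMA library 3 was close to it at 7.37 CPM.

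The members were also compared without library 1 of both spinal cord groups, a setting chosen after the data were seen. *Chodl* was then lower in SMA spinal cord by a log2 fold change of -0.46 ± 0.15 (SE, edgeR unadjusted p = 0.0211, adjusted p = 0.503) and *Isl1* by -0.41 ± 0.16 (unadjusted p = 0.0426, adjusted p = 0.509), with *Foxp1* at -0.25 ± 0.11 and *Slc18a3* at -0.15 ± 0.20. None passed with adjustment, both stayed short of the fold threshold, and 2 libraries a group remained. In the same setting the tissue differences of *Slc18a3* (4.6 and 5.37 on the log2 scale in controls and SMA), *Chodl* (3.33 and 3.26) and *Isl1* (-0.55 and -0.85) were close to those with all libraries. *Foxp1* was at 0.58 in controls (edgeR adjusted p = 0.0224) and 0.27 in SMA (adjusted p = 0.286).

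Ratios between members within a library do not depend on its depth, and all 6 pairs were compared between genotypes in spinal cord, a comparison added after the data were seen. The count ratio of *Slc18a3* to *Chodl* was 0.377, 0.346 and 0.409 in control libraries and 0.426, 0.491 and 0.457 in SMA libraries. The ratio of *Slc18a3* to *Isl1* was 0.655, 0.681 and 0.736 in controls and 0.832, 0.737 and 0.975 in SMA. In both pairs every SMA library lay above every control library, in the second by 0.737 against 0.736.

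By the mean of its log2 values, the ratio was 1.21-fold higher in SMA for *Slc18a3* to *Chodl* and 1.22-fold higher for *Slc18a3* to *Isl1*. Each had a 2-sided exact permutation p of 0.1, the smallest that 3 against 3 libraries can give, and an adjusted p of 0.3 over the 6 pairs. The ratio of *Slc18a3* to each of 10213 other genes failed to overlap between genotypes for 1.95% of them, and was the higher in SMA for 1.57%. The same share was 6.04% for ratios of *Chodl* and 9.46% for ratios of *Isl1*. The other 4 pairs overlapped.

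**Figure D4:**
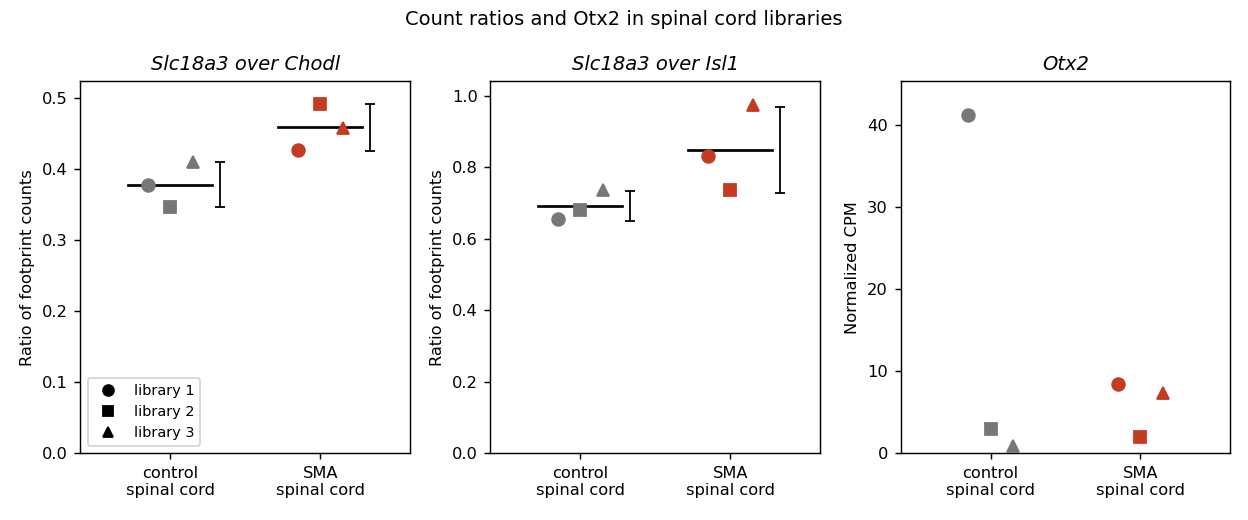
Count ratios of Slc18a3 to Chodl and of Slc18a3 to Isl1, and normalized CPM of Otx2 (y axes, from 0), in the 6 spinal cord libraries by genotype, with the symbol giving the library number and, for the ratios, a line at the mean and a bar of 1 SD. The ratios shown are the 2 of 6 pairs that did not overlap, picked after the data were seen, and both hold Slc18a3. In these all SMA ratios lie above all control ratios, for Slc18a3 to Isl1 by 0.737 against 0.736. Otx2 is highest in library 1 of each genotype, at 41.1 and 8.39.

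Other genes of the motor neuron programme were followed where a name was at hand. Of 29 listed partners in motor neuron identity 7 had a name, and 5 of these were called higher in spinal cord in both genotypes and 0 lower, where 20.1% of all genes were called higher in controls and 21.0% in SMA. Apart from *Aldh1a2*, the called genes were Hox genes. *Hoxc6*, *Hoxc8* and *Hoxc10* were also listed as genes of the head-to-tail axis. The calls therefore do not tell a motor neuron programme apart from axial level. *Hoxc8*, a Hox gene of thoracic and brachial levels, rose from 0.566 ± 0.157 CPM (SD, n = 3) in control brain to 91.9 ± 18.4 in control spinal cord (log2 fold change 7.32 ± 0.35 SE, edgeR adjusted p = 2.95e-07). *Hoxc6*, which acts in brachial motor neurons, had 0, 0 and 3 counts in control brain and a mean of 84.2 ± 22.1 CPM in control spinal cord. *Hoxc10*, of lumbar levels, had 1, 1 and 0 counts in control brain and 45.7 ± 10.8 CPM in control spinal cord. With so few brain counts no fold is given for them.

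*Aldh1a2*, which makes retinoic acid in limb-level motor neurons and in meninges, had 2, 1 and 1 counts in control brain and 0 in each SMA brain library. In spinal cord it had 27.0 ± 4.11 CPM (SD, n = 3) in controls and 23.1 ± 4.80 in SMA. In SMA this was at least 97.3-fold higher than in brain, taking a floor of 3 counts over the group. The fifth, *Hoxc5*, had 2, 0 and 2 counts in control brain and 40.0 ± 13.3 CPM in control spinal cord. *Ebf2* (0.26 ± 0.30) and *Etv1* (0.18 ± 0.18) did not pass in controls, nor in SMA. The median log2 fold change over the 7 in controls was that of *Hoxc8*, against 0.0031 over all genes. Like *Slc18a3*, genes this low in brain may be in the table through their spinal cord values, so the count and the median are descriptions.

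Of 20 listed genes of the motor axon 4 had a name, and these 4 were called higher in spinal cord in both genotypes, beside 20.1% of all genes in controls and 21.0% in SMA. The other 16 were not followed, so the list as a whole is not described. *Met*, the receptor of hepatocyte growth factor, had a log2 fold change of 2.26 ± 0.13 (SE, edgeR adjusted p = 6.11e-07) in controls and 2.24 ± 0.14 in SMA. The neurofilament genes *Nefl* (1.93 ± 0.19 in controls) and *Nefm* (1.89 ± 0.18), which are expressed by many neurons with long axons, and *Alcam* (0.78 ± 0.12), a cell adhesion molecule of growing axons, also passed. *Gfra2*, a coreceptor for neurturin that signals through *Ret*, was the 1 named gene of 9 in GDNF family signalling. It had 65.1 ± 0.931 CPM (SD, n = 3) in control spinal cord and 20.2 ± 5.69 in control brain (1.65 ± 0.16 SE on the log2 scale, edgeR adjusted p = 1.67e-05).

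Of 21 other cholinergic genes 2 had a name. *Chkb*, a choline kinase, was called higher in spinal cord in SMA (log2 fold change 0.76 ± 0.19 SE, edgeR adjusted p = 0.00810) and was at 0.48 ± 0.18 in controls (adjusted p = 0.0523). *Acly*, which supplies acetyl coenzyme A, was at 0.02 ± 0.08 in controls and did not pass. The difference between genotypes for *Chkb* was not called (interaction 0.27 ± 0.26, adjusted p = 1).

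Of 16 striatal and basal forebrain markers 2 had a name. *Nkx2-1*, a factor of the ventral forebrain, was lower in spinal cord (log2 fold change -3.95 ± 0.81 SE, edgeR adjusted p = 0.00241, in controls). Its counts in control spinal cord were 128, 0 and 7 (libraries 1, 2 and 3). Most of them came from library 1, described above for its forebrain genes. *Ngfr*, the p75 receptor of neurotrophins, which is also found on embryonic motor neurons, sensory neurons and Schwann cells, was higher in spinal cord (2.17 ± 0.21, adjusted p = 1.52e-05). Of 10 Schwann cell markers *Pmp22* alone had a name, and it did not pass (0.47 ± 0.42), with 8.54 to 19.5 CPM in brain and 9.90 to 28.2 CPM in spinal cord. Of 12 spinal interneuron markers *Gata3* alone had a name and did not pass (-0.41 ± 0.33 in controls). Among genes of the head-to-tail axis, *Otx2* (-2.85 ± 0.82, adjusted p = 0.0159) and *Lhx2* (-2.43 ± 0.34, adjusted p = 0.000180), both of the developing head, were lower in control spinal cord than in control brain. *Hoxc6*, *Hoxc8* and *Hoxc10*, given above, were on the same list and were higher. Of 15 sensory ganglion and 12 skeletal muscle markers none had a name, so whether ganglia came along with the spinal cord was not tested.

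In SMA versus control 0 of the 22 named genes of these lists were called in either tissue, and with 1.53% of all genes called in brain and 0.983% in spinal cord this count does not set them apart. The median log2 fold change in spinal cord was -0.07 for the motor neuron identity genes and 0.07 for the motor axon genes, against -0.0054 over all genes. In brain 5 of the 7 motor neuron identity genes had 0 to 5 counts a library, so no median is given. Of the 4 motor axon genes *Nefl* (0.20 ± 0.12 SE, edgeR adjusted p = 0.693) and *Nefm* (0.19 ± 0.13, adjusted p = 0.704) had the log2 fold changes furthest above 0 in SMA versus control spinal cord, and *Met* was at -0.13 ± 0.11 (adjusted p = 0.756). None of them passed.

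The genes whose log2 CPM followed each member most closely over the 12 libraries were sought among 1961 genes with a name. For *Chodl* these were *Agtpbp1* (Pearson r 0.995), a tubulin deglutamylase whose loss causes Purkinje cell and motor neuron degeneration, then *Gfra2* (0.992), *Alcam* (0.986), *Met* (0.981) and *Ptdss1* (0.980). For *Slc18a3* they were *Atp2b1*, a plasma membrane calcium pump (0.991), *Gfra2* (0.990), *Syn2*, a synaptic vesicle protein (0.987), *Impdh1* (0.986) and *Il6st*, the receptor subunit for CNTF and LIF (0.986). Since the libraries fall into 2 tissues, these correlations mostly describe the tissue difference.

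*Slc18a3* and *Chodl* had an r of 0.98 with each other over the 12 libraries, 0.72 within the 6 spinal cord libraries and 0.72 within the 6 brain libraries. *Isl1* was closest to *Slirp* (0.941), *Nup50* (0.928), *Btg2* (0.926), *Psmd4* (0.923) and *Kpnb1* (0.920), and *Foxp1* to *Nf1* (0.938), *Gga3* (0.933), *Drp2* (0.921) and *Sucla2* (0.911). *Isl1* and *Foxp1* had an r of -0.67 over all libraries, 0.94 within spinal cord and -0.81 within brain. All of these are descriptions, with no test, over libraries that differed in depth and tissue.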

How the data were processed

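Ribosome-protected fragments of 28 to 32 bases were sequenced. The authors trimmed reads with cutadapt 4.1, removed rRNA and tRNA, aligned with STAR 2.5.3a to GRCm38.p6 keeping reads with up to 5 alignments, and left out genes below the 80th FPKM percentile in all replicates of a condition (control or SMA). The deposited values are raw counts for each gene, with a gene length. The counting tool is not given in the sources used here.

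Counts were tested in R 4.3.3 with edgeR 4.0.16 (TMM, estimateDisp, glmQLFit, glmQLFTest, 2-sided). Genotypes were fitted within the 6 libraries of a tissue, and tissues and the interaction in 1 fit over 12 libraries. P-values were adjusted by Benjamini-Hochberg over 10481 genes. Standard errors were derived from the fold change and the F statistic. CPM in the text uses factors of all 12 libraries, so genotype fits rest on slightly other values. Scripts were tested on simulated data. Replicate libraries were not duplicates of each other by a chi-square check, and p-values measure the spread between these libraries.

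Members and gene lists were chosen with earlier results of these data known. Named genes were all members with a line in the table, from each list up to 4 genes called in a comparison by smallest p, and the 5 named genes most like each member. The planned likeness to *Chat* was not run, and *Slc18a3*, *Chodl* and *Foxp1* were used beside *Isl1*. List genes named beyond this were chosen after their values were seen, and a few items the rule would name are not reported here. Names were at hand for the 10 listed identifiers and for 1999 genes of a supplementary table, which pairs identifiers with symbols for all genes and of which the first part was at hand. Nearly all of these are the first genes of the deposited table by identifier, and a few further on were called by the study. No other column was used for a result. Of 156 list genes 22 had a name. The alternatives were DESeq2 1.42.0, library size alone, upper-quartile factors, filterByExpr, robust estimation, a trend on counts per base taken out, other thresholds, the replicate number as a block and each library left out. Plots used matplotlib 3.10.9 under Python 3.11.15.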

Additional observations from a re-analysis of the deposited data

How the results depend on the processing

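The member calls within SMA versus control and the interaction stayed at 0 of 4 under every alternative run, and the tissue calls of *Slc18a3*, *Chodl* and *Isl1* passed under every alternative run. Every alternative began from the same filtered genes, so the tissue calls of *Slc18a3* and *Chodl* remain descriptions, as above. With each library left out in turn, the members called in spinal cord versus brain ranged from 3 to 4 in both controls and SMA, and the change was *Foxp1*. Genes called in SMA versus control brain were 160, and 91 with DESeq2, 394 with the fold threshold at 0.3, 0 at an adjusted p below 0.05 and 169 to 273 with a library left out. In spinal cord they were 103, and 169 in 1 fit over 12 libraries, 439 with that threshold, 0 at an adjusted p below 0.05, 272 without both libraries numbered 1 (chosen after the data were seen) and 58 to 388 with a library left out (58 without control library 1, 388 without SMA library 1). Genes called in spinal cord versus brain were 3227 to 4634 in controls and 3231 to 4363 in SMA with a library left out. The interaction gave 249 genes at an unadjusted p below 0.05. The cause of these shifts was not tested.

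Directions that turned were all of differences that had not passed. With a library left out, the log2 fold change in brain ranged from -0.19 to 0.0095 for *Isl1*, -0.11 to 0.26 for *Foxp1*, -1.27 to 0.28 for *Slc18a3* and -0.77 to 0.57 for *Chodl*, and in spinal cord from -0.086 to 0.20 for *Slc18a3*. The interaction ranged from -0.25 to 0.0017 for *Isl1*, -0.23 to 1.34 for *Slc18a3* and -0.77 to 0.60 for *Chodl*. Without both spinal cord libraries numbered 1, *Slc18a3* in spinal cord was -0.15 and the *Chodl* interaction -0.071. *Slc18a3* was dropped by filterByExpr in brain, and DESeq2 gave *Isl1*, *Slc18a3* and *Chodl* no adjusted p in spinal cord. 
With the replicate number as a block, 207 genes were called in spinal cord in place of 103, and no member call changed. Libraries of 1 number deviated together (correlation above 0.1) in 6 of 12 pairs, with a range from -0.53 to 0.70. Both ends of that range were control with SMA spinal cord, which come from different embryos. Brain with spinal cord of the same genotype could share an embryo. Those correlations were 0.12, -0.074 and 0.25 in controls and 0.34, 0.18 and 0.079 in SMA (libraries 1, 2 and 3). The main fits did not pair the libraries. Whether libraries of 1 number share embryos or a dissection was not tested.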
